A study of Mus musculus with 4 samples.

Results

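The circadian clock genes described here are Clock, Npas2, Per1, Per2, Per3, Cry1, Cry2, Nr1d1, Nr1d2 and Dbp, measured in differentiating C2C12 cells, a mouse myoblast line that fuses into myotubes once serum is lowered. They were taken as every probe set annotated to exactly 1 of the 10 symbols, which gave 23 of the 34945 probe sets that carry a single symbol. For each gene the probe set with the highest mean signal over the 4 arrays served as the main one. The study set cells given an inhibitor of the histone demethylase LSD1 beside cells given vehicle, all on 1 Affymetrix array per sample. The groups were tranylcypromine (TC, an amine oxidase inhibitor; 1 array), S2101 (an LSD1 inhibitor known here by its code name; 1 array) and vehicle (2 arrays). All cells had been grown with 25 mM glucose and 10% fetal bovine serum and then held in 2% horse serum with the compound or vehicle for 48 h. The labels give no dose, and they do not say whether the arrays came from separate cultures, so a p-value here speaks for the scatter among these 4 arrays, part or all of which could be technical.

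The clock is a loop of transcription factors. CLOCK, or its relative NPAS2, pairs with BMAL1 (the product of Arntl) on E-boxes and drives Per, Cry, Nr1d1, Nr1d2 and Dbp, and the PER and CRY proteins then block that pair. REV-ERB alpha and beta, made from Nr1d1 and Nr1d2, repress Arntl through ROR elements, while DBP activates genes that hold D-boxes. The loop also runs in muscle cells, where it times metabolic genes, and LSD1 has itself been described in mouse cells as a partner of CLOCK and BMAL1. All arrays came from a single time point, so neither the phase nor the amplitude of any rhythm was measured.

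Promoter sequences are shown for the 3 members whose inhibitor arrays both lay below both vehicle arrays (Per3, Cry1 and Nr1d1) and for Per1, which holds the other E-box. They are the 250 bases before a start site in RefSeq (GRCm38.p6), 5′ to 3′ on the gene's strand, at chr4:151044666-151044915 (minus strand) for Per3, chr10:85185055-85185304 (minus) for Cry1, chr11:98775378-98775627 (minus) for Nr1d1 and chr11:69098699-69098948 (plus) for Per1. Capitals mark matches on either strand to the E-box CACGTG, the related E-prime box CACGTT, or the D-box TTATGTAA or TTACGTAA. They also mark the cAMP response element TGACGTCA and AGGTCA, the core of the ROR element, which was searched without its flanking bases.
Per3: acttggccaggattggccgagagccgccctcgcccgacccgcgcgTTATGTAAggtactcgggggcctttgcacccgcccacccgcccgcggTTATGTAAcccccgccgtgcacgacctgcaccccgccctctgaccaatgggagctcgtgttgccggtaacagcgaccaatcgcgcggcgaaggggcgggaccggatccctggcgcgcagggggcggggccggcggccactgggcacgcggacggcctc
Cry1: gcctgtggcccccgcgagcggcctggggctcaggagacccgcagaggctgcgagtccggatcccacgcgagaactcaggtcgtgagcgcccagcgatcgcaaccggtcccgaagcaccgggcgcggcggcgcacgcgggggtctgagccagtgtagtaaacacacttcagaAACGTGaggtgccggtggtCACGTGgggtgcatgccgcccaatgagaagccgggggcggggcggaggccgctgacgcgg
Nr1d1: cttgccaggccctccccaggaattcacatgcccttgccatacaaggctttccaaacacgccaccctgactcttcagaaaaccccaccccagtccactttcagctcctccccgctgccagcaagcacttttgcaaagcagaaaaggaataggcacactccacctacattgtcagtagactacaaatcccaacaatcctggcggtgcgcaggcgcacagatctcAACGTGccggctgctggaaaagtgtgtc
Per1: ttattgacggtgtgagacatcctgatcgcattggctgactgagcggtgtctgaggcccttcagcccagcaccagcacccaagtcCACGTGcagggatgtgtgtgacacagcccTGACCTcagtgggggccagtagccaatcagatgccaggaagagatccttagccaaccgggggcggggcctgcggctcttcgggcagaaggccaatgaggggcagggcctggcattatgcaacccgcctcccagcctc
The Per3 window holds the D-box at 205 and 158 bases before the start site, and the Cry1 window holds an E-prime box at 79 and an E-box at 60. The Nr1d1 window has an E-prime box at 28 bases, and the Per1 window shown an E-box at 166 and a ROR core at 137. Another Per1 start site, with its window at chr11:69099902-69100151 (plus), had no match to any of these motifs. The table had 12 start sites for 9 of the members, with no entry for Per2. Among 32851 windows of the same length in the mouse table, 6.02% held the E-box, 3.85% the E-prime box and 0.931% the D-box. The ROR core was in 14.0% and the cAMP response element in 1.55%. Among the members' 12 windows the counts were 2, 3, 1, 3 and 0. A match is a string of letters and not evidence of binding.

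The arrays were alike at the level of the whole chip. The median signal was 63.4 on the TC array, 72.2 on the S2101 array, and 75.1 and 66.6 on the vehicle arrays. The ratio of 3′ to 5′ Gapdh control signal, a sign of RNA integrity, lay between 0.743 and 0.790. Myog, the myogenic regulator that marks differentiating muscle cells, was bright on every array, between 11963 and 13386. Mean signals of the 17 muscle markers ran from 114 to 26962. The 9 fibroblast and smooth muscle markers ranged as widely, from 18.2 to 31774, so bright signals were not limited to muscle markers. The probe sets of 5 leukocyte and 5 endothelial markers had mean signals of at most 78.9 and 70.0, against a median of 178.8 over all genes. Markers of cycling cells moved with the inhibitors. Of 11 tested, 9 fell, among them Mki67 at -0.94 on the log2 scale used below, and 2 fell short of the threshold; their summed signal was 15561 with TC and 13865 with S2101, against 22575 and 22609 with vehicle, and their part in the values below was not tested. Of 7 tested fibroblast and smooth muscle markers, 3 fell (Tagln, Col1a1 and Postn, named like Mki67 after their values were seen) and 4 missed the threshold. Of the other markers tested, 0 of 16 muscle, 0 of 1 adipocyte and 0 of 2 neuronal ones passed, beside 8.01% of all genes tested. These marker counts take both inhibitor arrays together against vehicle. Among the muscle markers, Myl4 (-0.32), Tnnt1 (0.26) and Ttn (0.29) narrowly missed (adjusted p = 0.0533, 0.0537 and 0.0544, limma).

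No clock gene passed the test for a difference between the inhibitor arrays and the vehicle arrays. Signals were compared as log2(signal + 50), a scale that understates changes of dim genes, and all differences below are on it. Of the 10 members, 6 had a main probe set at or above the median gene and were tested among 9097 genes. With limma and Benjamini-Hochberg adjustment at 0.05, 0 of the 6 were called, where 8.01% of all genes tested were called, and 0 of the 6 had an unadjusted p under 0.05, where 22.3% of all genes tested did. Without the filter on dim genes, 0 of all 10 members were called among 18193 genes (1.46% called), and 0 had an unadjusted p under 0.05, where 14.2% of all genes did. With each of the 34945 probe sets tested, 0 of the members' 23 were called (0.306% called). The median difference of the 6 was -0.041, beside 0.014 over all genes tested, and the median size of the difference was 0.12 for both. In bulk samples fewer cells expressing a gene and less RNA per cell cannot be told apart.

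**Figure D1:**
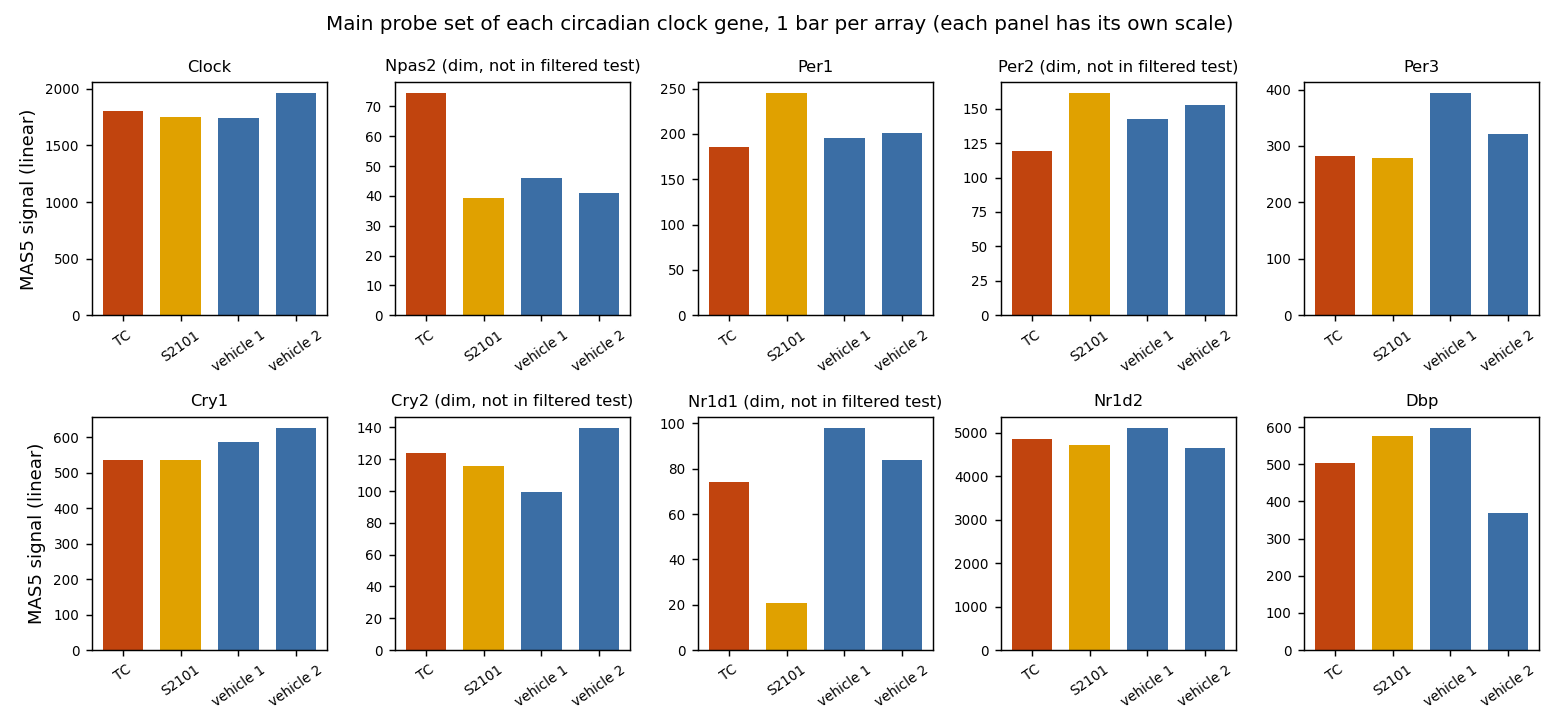
MAS5 signal (linear, y axis from 0) of the main probe set of each clock gene, 1 bar per array: TC, S2101, vehicle 1 and vehicle 2. Both inhibitor bars are below both vehicle bars for Per3, Cry1 and Nr1d1, where S2101 is at 20.6, and the groups overlap for the other 7; scales differ between panels and levels are not comparable between genes.

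Clock, the DNA-binding activator of the loop, had signals of 1802 with TC and 1751 with S2101, against 1743 and 1959 with vehicle. Both inhibitor values lay between the vehicle values, and the difference was -0.056 ± 0.087 (SE; 95% confidence interval -0.25 to 0.14; adjusted p = 0.768, limma). Its 3 other probe sets stood at differences of -0.26, 0.24 and 0.095, so the sign was not shared. In the probe set at -0.26, with a mean signal of 863, the S2101 array was low at 666, while TC was at 903 and vehicle at 933 and 948. Its difference against vehicle was -0.47 for S2101 and -0.055 for TC. The probe set at 0.24 gave 491 with TC and 488 with S2101, against 494 and 334 with vehicle, so that only vehicle 2 stood apart. The dimmest gave 118 and 115 against 100.3 and 112, slightly above vehicle.

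Npas2, which can stand in for CLOCK, was dim. Its main probe set gave 74.4 with TC and 39.5 with S2101, against 46.0 and 41.0 with vehicle, and its other probe set gave 55.1 and 5.44 against 3.75 and 4.24. The TC array was the highest of the 4 in both probe sets, while S2101 was near vehicle in both. The pooled difference of the main probe set was 0.17 ± 0.23 (SE; interval -0.38 to 0.73; adjusted p = 0.814, limma without the filter). Its TC difference alone was 0.41 ± 0.24 (SE, adjusted p = 0.549, limma without the filter), where 0.066% of 18193 genes were called for TC. For the other probe set, TC against vehicle had an unadjusted p of 0.0025 and an adjusted p of 0.246 (limma) when every probe set was tested, and it did not pass.

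Among the period genes, which encode repressors of the loop, Per1 gave 185 with TC and 245 with S2101, against 196 and 201 with vehicle. TC lay below and S2101 above the vehicle pair, and the pooled difference was 0.083 ± 0.17 (SE; interval -0.29 to 0.46; adjusted p = 0.829, limma). Per2 gave 119 and 161 against 142 and 153, again with TC lowest and S2101 highest, and a difference of -0.062 ± 0.21 (SE, adjusted p = 0.940, limma without the filter). In 2 dimmer Per2 probe sets the order was the other way for TC, at 59.2 against 32.1 with S2101 and 29.2 and 22.6 with vehicle, and at 68.5 against 13.5 with S2101 and 12.7 and 28.6 with vehicle.

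Per3 had the smallest p of the members in the pooled comparison. Its main probe set gave 281 with TC and 278 with S2101, against 393 and 320.4 with vehicle. The inhibitor values were close to each other and both below the vehicle pair, which itself spanned 0.26. The difference was -0.30 ± 0.14 (SE; interval -0.61 to 0.020) and did not pass (unadjusted p = 0.0633, adjusted p = 0.257, limma). Of its 5 other probe sets, 2 had negative and 3 positive differences, from -0.39 to 0.23, all with mean signals under the median gene. The brightest of these gave 107 and 124 against 132 and 82.1, with the vehicle arrays at both ends. The dimmest gave 19.6 with TC and 2.71 with S2101, against 27.9 and 31.4 with vehicle, the only other Per3 probe set with both inhibitor arrays below vehicle. The mean over all 6 Per3 probe sets differed by -0.090 (adjusted p = 0.745, limma). Without vehicle 1 the main probe set's difference was -0.17, and without vehicle 2 it was -0.43, and neither passed (adjusted p = 0.761 and 0.244, limma). The genes most like Per3 in their deviations from the vehicle mean over the 4 arrays were Pds5a, Tenm3, Med18, Tial1 and Cmtm4, at Euclidean distances of 0.053 to 0.071 on the log2 scale among 9096 genes.

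The cryptochromes, partners of the PER repressors, had 1 probe set each. Cry1 gave 537 with TC and 535 with S2101, against 588 and 626 with vehicle. The inhibitor values were nearly equal and both below vehicle, with a difference of -0.16 ± 0.11 (SE; interval -0.40 to 0.074; adjusted p = 0.415, limma). Cry2 gave 124 and 115 against 99.3 and 139.6, within the vehicle pair, with a difference of 0.011 ± 0.22 (SE, adjusted p = 0.992, limma without the filter).

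The REV-ERB genes encode heme-binding nuclear receptors that repress Arntl. Nr1d1 gave 74.1 with TC and 20.6 with S2101, against 97.9 and 83.9 with vehicle. Both inhibitor arrays were below vehicle, with S2101 far lower than TC and below the offset of 50. The pooled difference, -0.59 ± 0.30 (SE; interval -1.32 to 0.15), had the largest size among the 10 main probe sets and did not pass (adjusted p = 0.477, limma without the filter). S2101 alone differed from vehicle by -0.995 ± 0.26 (SE), with an unadjusted p of 0.0137 and an adjusted p of 0.293 (limma without the filter; 0.044% of genes called). Nr1d2, read by a bright probe set, gave 4844 and 4703 against 5100.5 and 4637. Its inhibitor values lay inside the vehicle pair, with a difference of -0.027 ± 0.074 (SE; interval -0.19 to 0.14; adjusted p = 0.879, limma), the narrowest interval among the members tested. A dim Nr1d2 probe set gave 62.2 and 61.7 against 75.5 and 87.9, a difference of -0.23 (adjusted p = 0.736, limma over every probe set).

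Dbp, the D-box activator and a direct output of CLOCK and BMAL1, had the widest gap within the vehicle pair among the 10 main probe sets. It gave 503 with TC and 576 with S2101, against 597 and 369 with vehicle, and both inhibitor values fell between these. The vehicle arrays differed by 0.63, while the inhibitor difference was 0.18 ± 0.18 (SE; interval -0.23 to 0.58; adjusted p = 0.632, limma). Leaving out vehicle 1 moved it to 0.49 (adjusted p = 0.0781, limma), and leaving out vehicle 2 moved it to -0.14 (adjusted p = 0.761, limma). The other Dbp probe set gave 209 and 248 against 252 and 191, with a difference of 0.044.

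**Figure D2:**
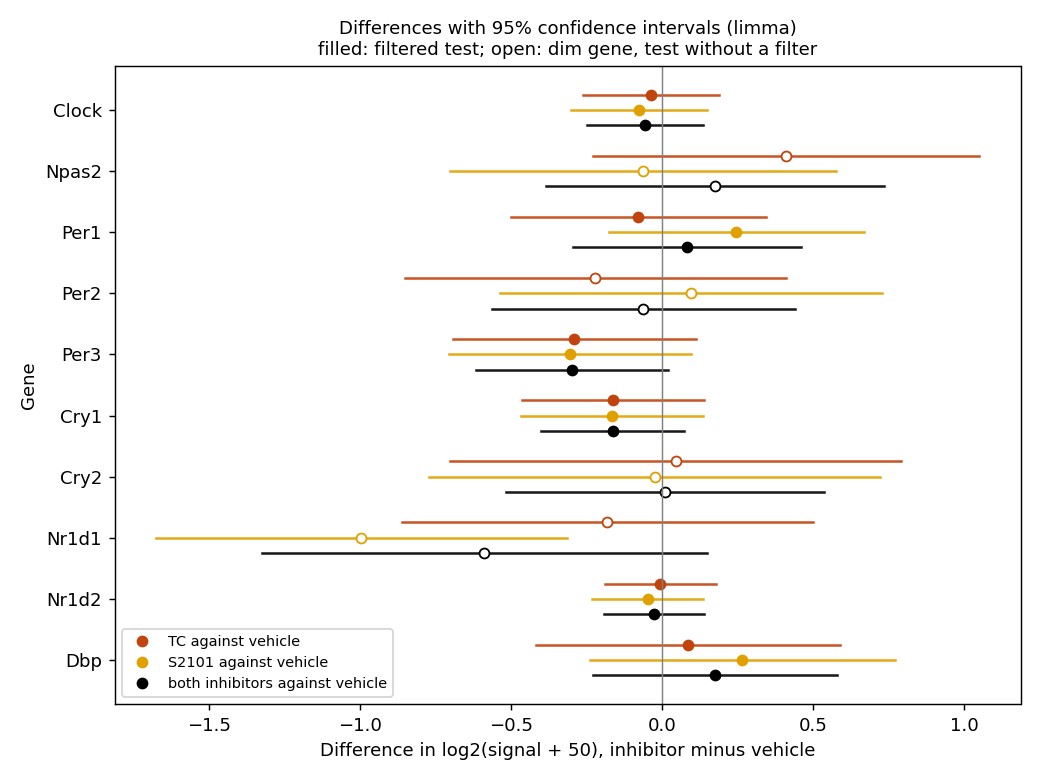
Difference in log2(signal + 50), inhibitor minus vehicle, for each clock gene, with 95% confidence intervals from limma: TC (red), S2101 (yellow) and both (black). Filled points are from the test on genes at or above the median, open points (Npas2, Per2, Cry2, Nr1d1) from the test without a filter; black intervals all cross 0, and the S2101 interval of Nr1d1 is the only drawn interval that does not.

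Across the 10 main probe sets, both inhibitor arrays lay below both vehicle arrays in 3 (Per3, Cry1 and Nr1d1) and above them in 0, where 22.2% and 21.0% of 18193 genes did so (43.2% either way). Among the 6 members tested, 2 (Per3 and Cry1) were below and 0 above, beside 23.4% and 27.6% of all genes tested (51.1% either way). Over all 23 probe sets, 6 were below, 3 were above and 14 overlapped, beside 22.3%, 18.8% and 58.9% of all 34945 probe sets (41.1% either way). The pooled difference exceeded the gap within the vehicle pair in 3 of the 6 members tested and in 56.7% of all genes tested. Of the 6 members with several probe sets, 3 (Clock, Per2 and Per3) had probe sets that differed in sign.

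**Figure D3:**
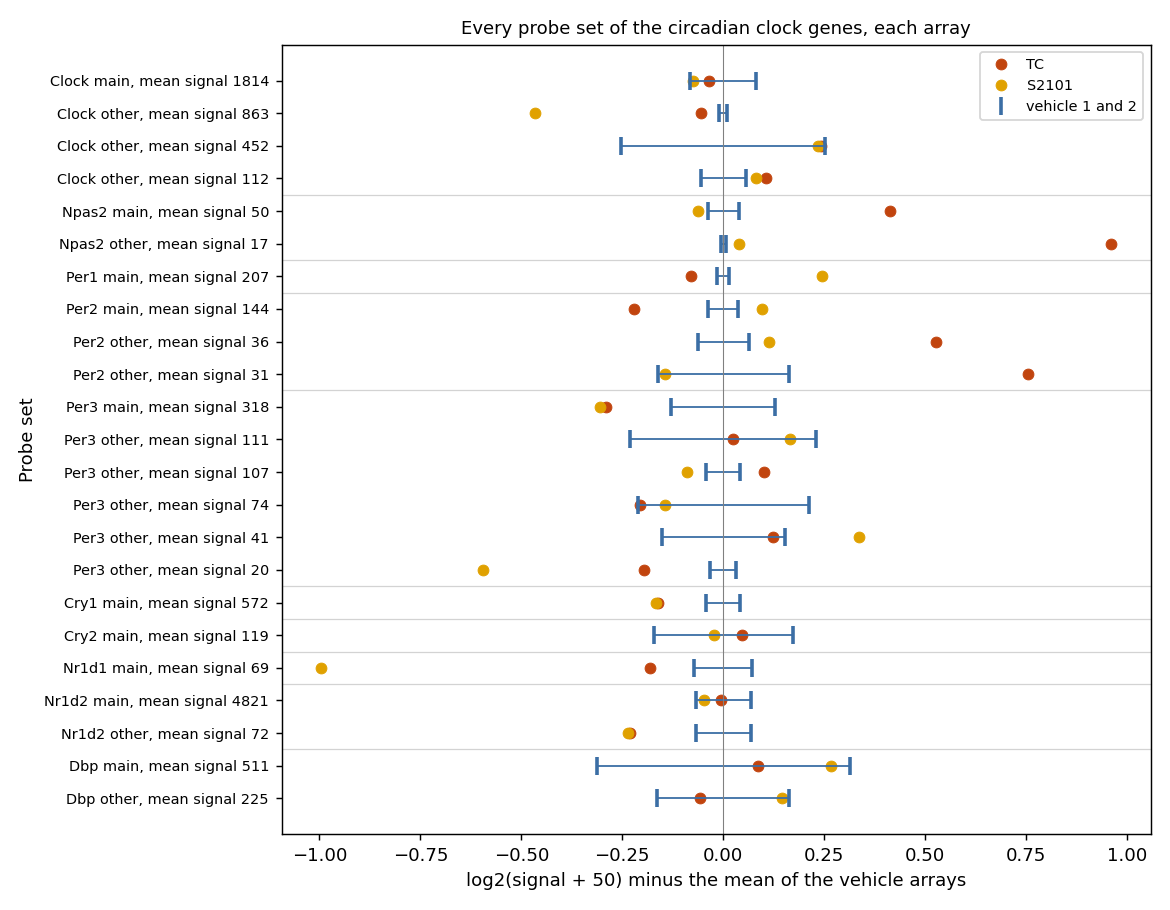
Each row is 1 probe set of a clock gene, labelled with its mean signal; points give log2(signal + 50) on the TC (red) and S2101 (yellow) arrays minus the vehicle mean, and blue bars span the vehicle arrays. The largest deviations belong to probe sets with mean signals under 100: Npas2 and Per2 with TC to the right, Nr1d1 and a Per3 probe set with S2101 to the left.

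For TC alone, 0 of the 6 members tested passed (8.18% of all genes called), and for S2101 alone 0 of the 6 passed (6.71% called), with 0 members at an unadjusted p under 0.05 in either, where 23.6% of all genes tested were for TC and 20.8% for S2101 (limma). These comparisons share the vehicle arrays and have 1 inhibitor array each, which is assumed to vary like vehicle. Their counts rest on main probe sets and do not cover the members' other probe sets, some of which differed more. Differences there reached 0.96 (Npas2) and 0.76 (Per2) for TC. For S2101 they reached -0.47 (Clock) and -0.60 (Per3), each on 1 inhibitor array. Differences against vehicle were -0.29 for TC and -0.31 for S2101 in Per3, -0.16 and -0.17 in Cry1, -0.079 and 0.25 in Per1, and 0.086 and 0.27 in Dbp. TC was also set directly against S2101. In that comparison 0 of the 6 members passed, and 0.033% of all genes were called (limma). An unadjusted p under 0.05 was found in 0 of the 6 and in 8.71% of all genes tested. TC minus S2101 was 0.0040 (interval -0.34 to 0.35) in Cry1, 0.016 (-0.45 to 0.48) in Per3 and -0.32 (-0.81 to 0.16) in Per1. These intervals admit differences of either sign, and with no doses stated the compounds are not compared at matched dose. Nr1d1, tested without the filter, was 0.81 higher with TC than with S2101 (interval 0.029 to 1.60; adjusted p = 0.788, limma).

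Among the other genes of the clock loops, Timeless alone passed. Of 12 genes listed, 11 had a probe set and 6 were tested. Of these, 0 rose, 1 fell and 5 missed the threshold, where 8.01% of all genes tested were called. The median difference was -0.098 beside 0.014 over all genes. Timeless, a mammalian replication fork protein named after a fly clock gene, gave 236 with TC and 222 with S2101, against 378 and 364 with vehicle. Both inhibitor arrays were below both vehicle arrays, with a difference of -0.60 ± 0.13 (SE), and Timeless fell (adjusted p = 0.0237, limma). Its other probe set gave 56.5 and 61.8 against 127 and 115. The call ended without the filter (adjusted p = 0.126, limma), with every probe set tested (adjusted p = 0.173) and when any of the 4 arrays was left out (adjusted p between 0.0518 and 0.104). Timeless moved in the same direction as the markers of cycling cells above, and their part in its fall was not tested.

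Arntl, which encodes the BMAL1 partner of CLOCK and NPAS2, gave 636 with TC and 622 with S2101, against 658 and 668 with vehicle, a difference of -0.071 (adjusted p = 0.743, limma) with both inhibitor arrays slightly below vehicle; it is named here for its role in the loop and not by size. Bhlhe40, a repressor that competes for E-boxes, gave 3447 and 3442 against 3008 and 2979.5, with a difference of 0.20 ± 0.071 (SE) that did not pass (adjusted p = 0.124, limma). Nfil3, which represses through D-boxes, stood at -0.18 (adjusted p = 0.438, limma), and Rorb, a ROR-family receptor, at 0.16 (adjusted p = 0.596, limma). Other Rorb probe sets stood at 0.14 and -0.088.

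Of 18 tested kinases, ubiquitin ligases and cofactors that act on clock proteins, 0 passed in the pooled comparison, beside 8.01% of all genes tested (limma). Their median difference was 0.053. The count does not cover single compounds, where Gsk3a differed from vehicle by 0.60 for S2101 and by 0.046 for TC. The largest differences were in Gsk3a, a kinase (0.32, adjusted p = 0.247, limma) and Usp2, a deubiquitinase (0.31, adjusted p = 0.284, limma). Btrc, a ubiquitin ligase subunit that targets PER proteins, followed (-0.31, adjusted p = 0.341, limma). Another Usp2 probe set stood at 0.37, while the other Btrc probe sets, all dimmer, stood at 0.054, 0.0051, 0.23 and 0.12. Gsk3a was highest on the S2101 array, with 1785 on the TC array and 2637 on the S2101 array, against 1848 and 1615 with vehicle. Leaving out TC gave it a difference of 0.60 (adjusted p = 0.00871, limma), leaving out S2101 gave 0.046 (adjusted p = 0.844) and leaving out vehicle 2 gave 0.23 (adjusted p = 0.507). TC minus S2101 had an unadjusted p of 0.0010 and an adjusted p of 0.263.

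Of 10 tested genes known in mouse as rhythmic or clock-controlled in some tissue, 2 rose, 0 fell and 8 missed the threshold. Of all genes tested, 8.01% were called. The median difference of the 10 was 0.10. Pdk4, a kinase that restrains pyruvate oxidation, rose to 776 with TC and 697 with S2101, against 345 and 407 with vehicle, and Gadd45a, a stress and cell cycle gene, to 9140.1 and 8129, against 6138 and 6154. Their differences were 0.89 ± 0.12 (SE, adjusted p = 0.00204, limma) and 0.48 ± 0.074 (SE, adjusted p = 0.00335, limma), and neither passed when all 34945 probe sets were tested (adjusted p = 0.0638 and 0.0851). Neither gene is specific to the clock. Nampt, the enzyme of NAD salvage (0.29, adjusted p = 0.160), and Cdkn1a, a cell cycle inhibitor (0.11, adjusted p = 0.409), did not pass (limma). Other Nampt probe sets stood at 0.060 and -0.079. Another bright Cdkn1a probe set stood at 0.19, with both inhibitor arrays above both vehicle arrays (adjusted p = 0.300, limma over every probe set). Klf9, a hormone-responsive factor, gave 3740.4 with TC and 4515 with S2101, against 3874 and 3008 with vehicle. Its difference was 0.26 (adjusted p = 0.237, limma), and 0.44 without vehicle 1, 0.084 without vehicle 2 and 0.13 without S2101. Klf9 probe sets with mean signals of 2384, 2368 and 429 stood at 0.35, 0.34 and 0.33. In each, both inhibitor arrays were above both vehicle arrays, and none passed (adjusted p = 0.262, 0.256 and 0.299, limma over every probe set). Dimmer Klf9 probe sets stood at 0.19 and 0.28, also above vehicle, and at -0.62, below vehicle with a mean signal of 32.7.

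**Figure D4:**
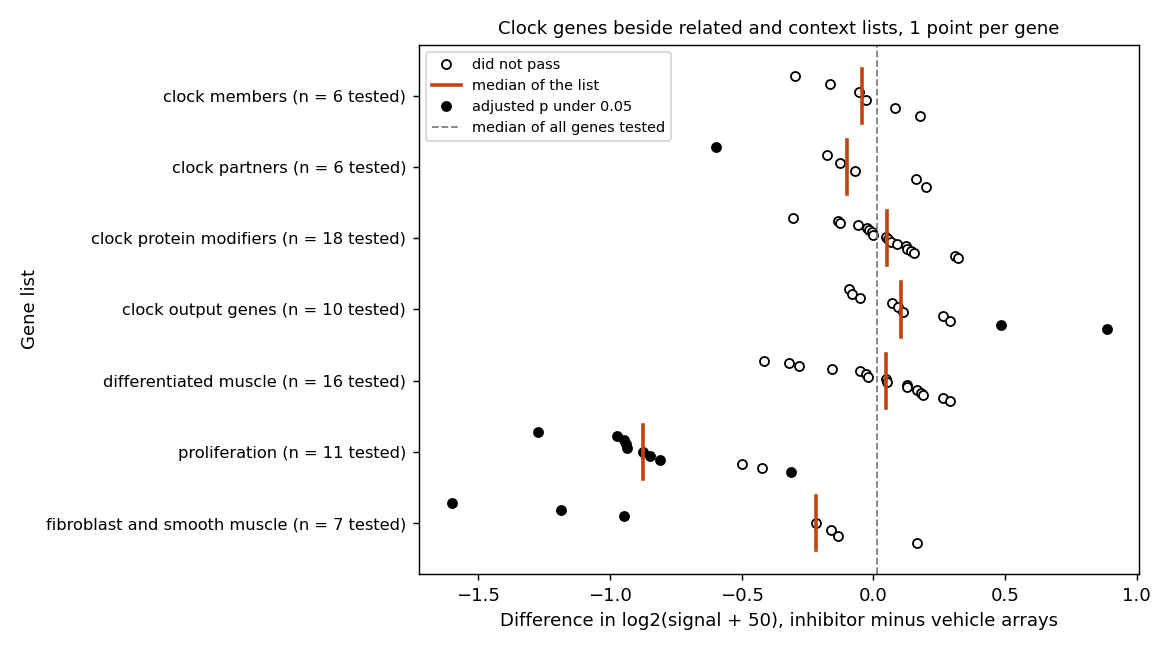
Each point is a tested gene, placed by its difference in log2(signal + 50) between inhibitor and vehicle arrays; filled points passed at an adjusted p of 0.05 (limma), red bars are list medians and the dashed line is the median of all genes tested (0.014). The 6 clock members lie between -0.30 and 0.18 with 0 filled, while 9 of 11 proliferation genes are filled and negative.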

How the data were processed

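Expression was measured on 4 arrays. The deposited intensity values are MAS5 signals per probe set, made by the authors with MAS5 and Affymetrix Expression Console per the submitters' processing notes; their versions are not known here. The 2% trimmed mean was 500.0 on every array, and precision is limited by the small number of arrays. The platform annotation gave 1 symbol to 34945 of 45101 probe sets, several to 932 and none to 9160, besides 64 controls.

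Each gene was read by its brightest probe set, and the 9097 of 18193 genes at or above the median mean signal of 178.8 were tested on log2(signal + 50) with limma 3.58.1 (R 4.3.3; moderated by a prior that follows intensity), with Benjamini-Hochberg adjustment over all genes tested. The pooled comparison took TC and S2101 as replicates of inhibition, a choice made here (residual df 2, prior df 8.08); comparisons of single compounds used 3 groups (1 and 8.37). The fits were run on simulated data for the 9097 genes, with normal scatter sized from the vehicle pair. That run does not cover dim genes, or an inhibitor array that varies more than vehicle. Alternatives were other offsets, filters, normalization, variance model and probe set rules, leaving out each array, and a replicate block.

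Named genes were all members, up to 5 passing and 3 other genes per clock list by size of difference, and the 5 genes nearest to the member with the smallest p; exceptions are stated. Members and lists were chosen with earlier results of these data known.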

Additional observations from a re-analysis of the deposited data

How the results depend on the processing

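The count of clock members past the test was 0 in each of the 4 comparisons and under every alternative run. Of 274 member values under 13 alternatives, 262 kept their sign and side of the threshold. None of the values that changed sign passed the test. With probe sets averaged, the pooled differences of Clock and Btrc were 0.0041 and 0.021, and Clock with TC was 0.065. Leaving out 1 array gave -0.14 to 0.49 for Dbp, -0.095 to 0.041 for Nr1d2, -0.079 to 0.25 for Per1 and -0.14 to 0.027 for Clock. Against a lone vehicle array no test remains for a single compound. The cause was not tested.

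Since the members' count was already 0, it says nothing about their stability. The pooled count of 729 genes was 266 without the filter, 423 without the intensity trend, 457 with the 75th percentile filter, 478 with averaged probe sets and 107 over every probe set. For TC, 744 became 12 without the filter, 83 without the trend and 0 over every probe set, and for S2101, 610 became 8, 112 and 0. TC against S2101 had 3 calls, and 13 with quantile normalization, 22 with averaged probe sets and 0 under the other 3 settings.

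The sample descriptions number vehicle and inhibitor arrays 1 and 2, with TC as 1 and S2101 as 2. With that number as a replicate block, 0 members and 1223 genes passed. The vehicle gap and TC minus S2101 correlated at 0.065 across 9097 genes. Because TC minus S2101 also holds any difference between the compounds, this cannot settle whether the numbers mark pairs. Levels under about 100 limit Npas2, Nr1d1 and many secondary probe sets, where an offset of 50 shrinks differences.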

Other observations

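Hlf, which encodes a relative of DBP that binds D-boxes, was dim and so was outside the filtered test; it was singled out after its values were seen. Its main probe set gave 89.5 with TC and 117 with S2101, against 43.5 and 38.3 with vehicle, so both inhibitor arrays were above both vehicle arrays. The difference was 0.75 ± 0.21 (SE; interval 0.24 to 1.26) and did not pass without the filter (unadjusted p = 0.0112, adjusted p = 0.182, limma). A second probe set, dimmer still, gave 43.5 and 13.8 against 4.69 and 52.5, with overlapping groups.

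The high TC values of Npas2 and of 2 secondary Per2 probe sets were also picked out after they were seen. The TC array exceeded the next highest array by 0.92 and 0.37 in the Npas2 probe sets and by 0.59 and 0.41 in the Per2 ones. Among 20023 probe sets with mean signals under the median gene, 0.04%, 1.8%, 0.444% and 1.43% had a gap at least as large. The main Per2 probe set, which is brighter, had TC as its lowest array. These values rest on 1 TC array.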
